A study of Mus musculus with 12 samples.

Results

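A set of 10 genes of primitive endoderm and its basement membrane was followed through *Kdm6a* knockdown in mouse ES cells. They were *Sparc*, *Lamb1*, *Lama1*, *Lamc1*, *Col4a1*, *Col4a2*, *Gata4*, *Gata6*, *Sox7* and *Dab2*, taken by gene symbol from the annotation of the arrays, 10 of the 19938 genes measured. All 10 reached the minimum level for testing, a mean over the 12 arrays of at least 0.1 times the array mean. The set was chosen by these functions and selected on measured values in part, the lower values of *Sparc* and *Lamb1* after *Kdm6a* RNAi in PGK12.1, so the PGK12.1 values of all 10 are given as a description without a test. The rule did not use the WD44 arrays, and tests are given there. For members other than *Sparc* and *Lamb1*, tests are also given for double against single RNAi, a contrast within the PGK12.1 arrays. For *Sparc* and *Lamb1*, which these arrays chose, such a test is not independent of the choice and is not given.

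PGK12.1 is a female ES cell line from blastocysts of a 129 female and a (129 X PGK)F1 male, and WD44 is a male ES cell line from BL6 blastocysts, so sex, strain and line cannot be told apart. Cells received siRNAs against *Kdm6a* (*Kdm6a* RNAi) or negative control siRNAs (control RNAi). PGK12.1 experiments 1 and 2 were double RNAi, in which a first transfection of 100 pmol (48 h) was followed by a second of 400 pmol (24 h). PGK12.1 experiments 3 and 4 and WD44 experiments 1 and 2 were single RNAi, with the first transfection alone. All cells were grown with LIF on embryonic fibroblast (MEF) feeders, which were depleted on gelatin before RNAi. Each experiment had 1 *Kdm6a* RNAi array and 1 control array. The labels number the experiments but do not say that the WD44 experiments were separate cultures, so their spread may be technical.

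Primitive endoderm is the epithelium that forms on the surface of the inner cell mass of the blastocyst. GATA6, GATA4 and SOX7 are transcription factors of this lineage, and DAB2 is an endocytic adaptor needed to place its cells at the surface. Endoderm cells lay down a basement membrane, in which laminin α1, β1 and γ1 chains (*Lama1*, *Lamb1*, *Lamc1*) assemble into laminin-111 and collagen IV α1 and α2 chains (*Col4a1*, *Col4a2*) assemble into a second network. SPARC is a secreted glycoprotein that binds collagen IV and is abundant in parietal endoderm. Undifferentiated ES cells make laminin, SPARC and some collagen IV themselves, and fibroblasts make SPARC and collagen IV too.

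Promoter windows of *Sparc* and *Lamb1* are shown because these genes were the members with the lowest changes in PGK12.1. They are the 250 bases before the annotated start, from RefSeq on GRCm38.p6, *Sparc* at chr11:55420081-55420330 on the minus strand and *Lamb1* at chr12:31265043-31265292 on the plus strand. Capitals mark matches, on either strand, to 6 short motifs. For GATA factors the letters searched were AGATAA and also the variant TGATAA. For SOX factors the letters searched were AACAAT and also the variant ACAAAG. The letters for SP1 were GGGCGG, and the CCAAT box was searched as written.
Sparc: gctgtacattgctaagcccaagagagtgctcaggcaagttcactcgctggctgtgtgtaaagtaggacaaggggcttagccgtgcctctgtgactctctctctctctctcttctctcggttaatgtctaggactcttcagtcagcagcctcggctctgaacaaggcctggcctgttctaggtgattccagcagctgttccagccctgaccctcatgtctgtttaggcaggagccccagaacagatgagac
Lamb1: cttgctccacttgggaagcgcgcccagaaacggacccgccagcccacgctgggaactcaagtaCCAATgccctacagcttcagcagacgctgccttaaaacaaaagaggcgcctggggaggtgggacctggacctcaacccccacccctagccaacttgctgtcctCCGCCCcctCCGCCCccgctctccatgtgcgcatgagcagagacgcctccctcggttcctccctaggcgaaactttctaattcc
The *Sparc* window held no match to the 6 motifs. The *Lamb1* window held CCAAT and, on the minus strand, GGGCGG at 2 places. Over the 300-base windows of all 32851 RefSeq promoters, which add 50 bases after the start, 35.7% held GGGCGG and 37.4% held CCAAT. The GATA motifs were in 11.2% (AGATAA) and 9.05% (TGATAA) of windows, and the SOX motifs in 10.7% (AACAAT) and 18.7% (ACAAAG). RefSeq windows were matched for 5 members, with 2 windows for *Dab2*. A GATA motif was in *Dab2* windows alone, and no SOX motif was in any of the 6 windows. *Col4a1* (minus strand) and *Col4a2* (plus strand) lie on chromosome 8, and their annotated starts lie 21 bases apart. As annotated, both transcripts first cross the stretch between the starts, so their 5' ends overlap, and then run away from each other. The stretch from the *Col4a2* start to the *Col4a1* start, chr8:11312805-11312826 on the plus strand, is shown because it lies in both annotated transcripts, with GGGCGG in capitals.
Col4a1 and Col4a2: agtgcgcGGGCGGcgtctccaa
A match is a description of these letters and says nothing of binding.

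*Kdm6a*, the target of the siRNAs, is X-linked and encodes a histone H3K27 demethylase. It was lower after *Kdm6a* RNAi in all 6 experiments, with log2 changes between -1.50 and -0.92, by a mean of -1.29 in PGK12.1 (adjusted p = 0.000292 from limma) and -0.93 in WD44 (95% interval -1.17 to -0.69, adjusted p = 0.129 from limma). Among the 15329 genes tested with limma, 890 (5.81%) passed an adjusted p of 0.05 in PGK12.1. In WD44 0 genes passed (0%), *Kdm6a* included, while 2464 (16.1%) had an unadjusted p under 0.05. Array medians were 6.15 to 6.48 on the log2 scale in PGK12.1 experiments 1 to 3, 8.2 and 8.21 in experiment 4 and 8.03 to 8.08 in WD44. Levels are therefore given as the linear value over the array mean, and changes on the log2 scale, with the control array of an experiment subtracted from its *Kdm6a* RNAi array. Levels of different genes are not comparable, since each rests on its own probes. Of 8 ES cell markers 7 were above the mean of every array, such as *Pou5f1* at 6.61 to 11.9 times the array mean, and *Zfp42* was at 0.628 to 4.78. Of 6 primitive endoderm markers that are not members, 6 were below the mean of every array, such as *Sox17* at 0.0762 to 0.154 and *Hnf4a* at 0.179 to 0.889 times the array mean. Most probe sets of an array lie below its mean, so this count does not show that primitive endoderm cells were absent. *Lama1* at 0.993 times the array mean, for example, stood at percentile 77.1 of the *Kdm6a* RNAi array of PGK12.1 experiment 4.

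**Figure D1:**
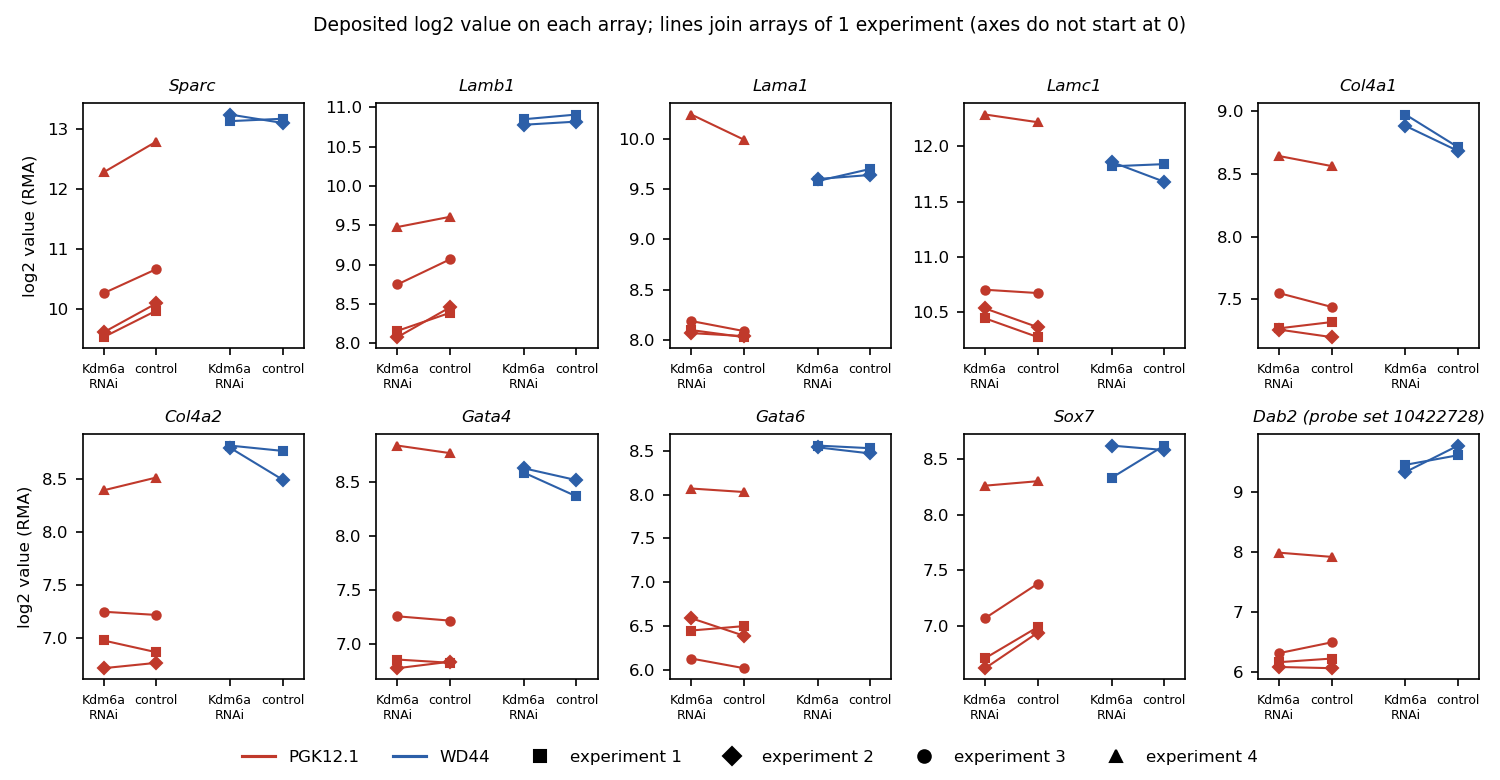
Deposited log2 value (RMA) of each member on each array, with lines joining the *Kdm6a* RNAi array (left) and the control array (right) of 1 experiment, PGK12.1 in red and WD44 in blue. For *Sparc* and *Lamb1* the *Kdm6a* RNAi end lies below the control end in all 4 PGK12.1 experiments, and arrays of PGK12.1 experiment 4 and WD44 sit higher since their medians were 8.03 to 8.21.

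Of the secreted matrix genes, *Sparc* and *Lamb1* had lower values in all 4 PGK12.1 experiments, *Lama1* and *Lamc1* had higher values in all 4, and *Col4a1* and *Col4a2* lay on both sides of 0. *Sparc* was at 2.01, 2.13, 2.18 and 4.08 times the array mean after *Kdm6a* RNAi in PGK12.1 experiments 1 to 4, against 2.76, 2.95, 2.87 and 5.81 on the control arrays. The 2 groups overlap, because experiment 4 stood higher on both arrays, while within each experiment *Sparc* was lower. Its log2 changes were -0.44, -0.48, -0.40 and -0.51, a mean of -0.46 ± 0.048 (SD, n = 4 experiments) or 27.2% lower. This was the 42nd lowest of all genes tested, a rank not independent of the choice of *Sparc* by these values. In WD44 *Sparc* was at 7.77 and 8.43 times the array mean after *Kdm6a* RNAi and 7.88 and 7.59 on the control arrays. The changes were -0.04 and 0.14, with a mean of 0.05 (95% interval -0.10 to 0.20, adjusted p = 0.752 from limma).

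*Lamb1* was at 0.772, 0.733, 0.761 and 0.586 times the array mean after *Kdm6a* RNAi in PGK12.1, against 0.917, 0.946, 0.948 and 0.641 on the control arrays. It was lower in each experiment, least in experiment 4, where the control array was the lowest of the 4. The log2 changes were -0.23, -0.38, -0.32 and -0.13, a mean of -0.27 ± 0.109 (SD, n = 4 experiments) or 16.8% lower. In WD44 *Lamb1* was at 1.60 and 1.53 times the array mean after *Kdm6a* RNAi and 1.65 and 1.56 on the control arrays. The mean change there was -0.05 (95% interval -0.21 to 0.11, adjusted p = 0.771 from limma), and both differences were smaller than the difference between the 2 control arrays.

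The partners of *Lamb1* in laminin-111 had positive values in PGK12.1. *Lama1* was at 0.740, 0.728, 0.516 and 0.993 times the array mean after *Kdm6a* RNAi in PGK12.1, against 0.714, 0.707, 0.481 and 0.834 on the control arrays, with a mean log2 change of 0.11 ± 0.096 (SD, n = 4 experiments). Its WD44 levels were 0.663 and 0.677 after *Kdm6a* RNAi and 0.711 and 0.690 on the control arrays, a mean change of -0.08 (95% interval -0.23 to 0.07, adjusted p = 0.597 from limma). *Lama1* was thus the 1 member whose 4 PGK12.1 changes and 2 WD44 changes lay on opposite sides of 0, as did 9.34% of all genes tested. *Lamc1* was at 3.75, 4.00, 2.94 and 4.11 times the array mean after *Kdm6a* RNAi in PGK12.1, against 3.37, 3.53, 2.87 and 3.91 on the control arrays. Its mean change was 0.11 ± 0.071 (SD, n = 4 experiments) in PGK12.1 and 0.08 in WD44 (95% interval -0.08 to 0.24, adjusted p = 0.607 from limma). Higher values in all 4 PGK12.1 experiments, as for *Lama1* and *Lamc1*, were seen in 16.3% of all genes tested, and lower values in all 4, as for *Sparc*, *Lamb1* and *Sox7*, in 10.6%.

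The collagen IV genes lay on both sides of 0 in PGK12.1 and had positive values in both WD44 experiments. *Col4a1* was at 0.328 to 0.416 times the array mean after *Kdm6a* RNAi and 0.306 to 0.437 on the control arrays of PGK12.1, with changes of -0.05, 0.06, 0.11 and 0.08. In WD44 it was at 0.435 and 0.411 times the array mean after *Kdm6a* RNAi, against 0.358 and 0.355 on the control arrays. Its mean WD44 change was 0.23, or 17.3% (95% interval 0.09 to 0.37), with an unadjusted p of 0.00465 and an adjusted p of 0.181 from limma, so it did not pass the test. It had the smallest WD44 p of the 10 members. *Col4a2*, its partner chain, was at 0.269 to 0.341 times the array mean after *Kdm6a* RNAi and 0.263 to 0.320 on the control arrays of PGK12.1, with changes of 0.11, -0.05, 0.03 and -0.12. In WD44 it was at 0.389 and 0.386 times the array mean after *Kdm6a* RNAi and 0.371 and 0.311 on the control arrays, a mean change of 0.18 (95% interval -0.0020 to 0.35, adjusted p = 0.316 from limma). Positive values in both WD44 experiments, as for *Col4a1*, *Col4a2*, *Gata4* and *Gata6*, were seen in 31.3% of all genes tested, and negative values in both, as for *Lamb1* and *Lama1*, in 33.1%.

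Of the 3 transcription factors, *Gata4* and *Gata6* had values on both sides of 0 in PGK12.1 and *Sox7* had negative values in all 4 experiments. *Sox7* was at 0.282, 0.266, 0.238 and 0.252 times the array mean after *Kdm6a* RNAi in PGK12.1, against 0.347, 0.330, 0.294 and 0.258 on the control arrays. The log2 changes were -0.28, -0.32, -0.31 and -0.04, a mean of -0.24 ± 0.133 (SD, n = 4 experiments). Experiments 1 to 3 lay close together, and in experiment 4 the control array lay within the range of the *Kdm6a* RNAi arrays of the other experiments. In WD44 *Sox7* was at 0.279 and 0.343 times the array mean after *Kdm6a* RNAi and 0.336 and 0.331 on the control arrays, with changes of -0.29 and 0.04, a mean of -0.13 (95% interval -0.33 to 0.08, adjusted p = 0.537 from limma). *Gata4* was at 0.271 to 0.376 times the array mean after *Kdm6a* RNAi and 0.263 to 0.358 on the control arrays of PGK12.1, with changes of 0.03, -0.06, 0.04 and 0.07. In WD44 it was at 0.334 and 0.345 times the array mean after *Kdm6a* RNAi and 0.283 and 0.317 on the control arrays, a mean change of 0.17 (95% interval 0.03 to 0.30, unadjusted p = 0.0253 and adjusted p = 0.253 from limma). *Gata4* did not pass the adjusted test in WD44. *Gata6* was at 0.124 to 0.261 times the array mean after *Kdm6a* RNAi and 0.114 to 0.247 on the control arrays of PGK12.1. Its changes were -0.05, 0.20, 0.11 and 0.04 in PGK12.1 and 0.03 and 0.07 in WD44 (95% interval of the WD44 mean -0.11 to 0.21, adjusted p = 0.769 from limma).

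*Dab2* had 2 probe sets that moved apart in WD44, and their average hides both. Probe set 10422728 was at 0.606 and 0.561 times the array mean after *Kdm6a* RNAi in WD44, against 0.668 and 0.755 on the control arrays. Its changes were -0.16 and -0.44, a mean of -0.30 (95% interval -0.49 to -0.11, unadjusted p = 0.00569 and adjusted p = 0.186 from limma over single probe sets), which did not pass the test. Probe set 10422744 had changes of 0.18 and 0.41 in WD44, but its level was 0.0260 to 0.0348 times the array mean there, below the minimum level. The average of both was -0.0025 in WD44 (95% interval -0.14 to 0.14, adjusted p = 0.989 from limma). In PGK12.1 probe set 10422728 was at 0.141 to 0.209 times the array mean after *Kdm6a* RNAi and 0.160 to 0.205 on the control arrays, and the averaged changes were 0.035, 0.05, -0.10 and 0.035.

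**Figure D2:**
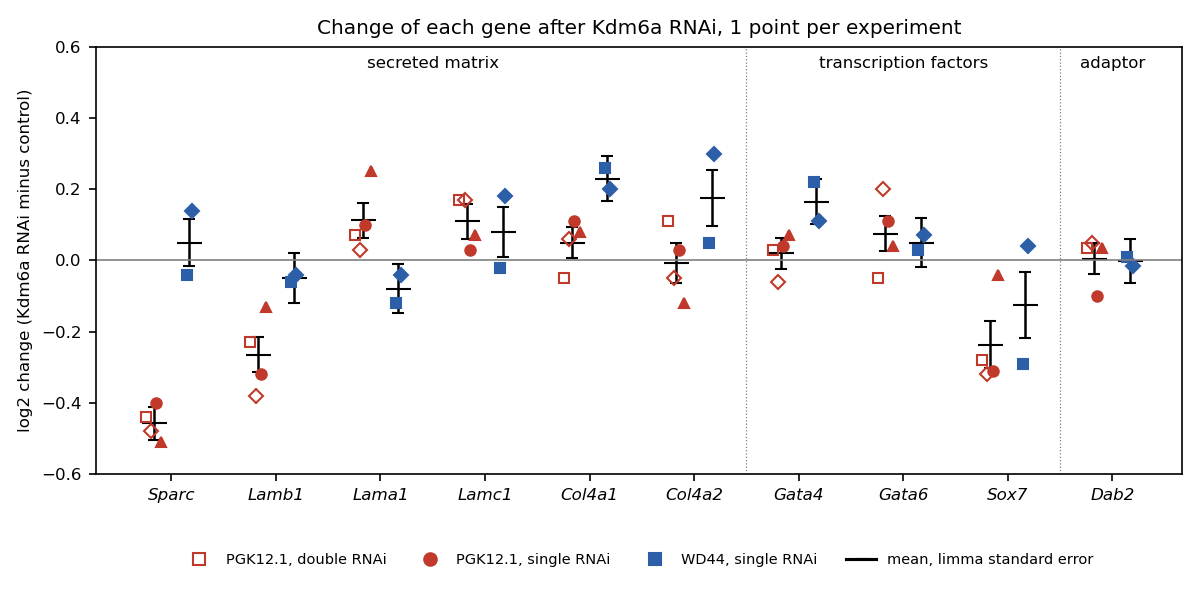
Log2 change (*Kdm6a* RNAi minus control) of each member, 1 point per experiment, PGK12.1 in red (open for double RNAi) left of WD44 in blue, with the mean and its limma standard error in black; marker shapes give the experiment number. *Sparc* lies between -0.51 and -0.40 in PGK12.1, and its WD44 points are -0.04 and 0.14, while all 6 points of *Lamb1* lie below 0.

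Over the fits that left out 1 experiment, the mean PGK12.1 change lay between -0.48 and -0.44 for *Sparc*, between -0.31 and -0.23 for *Lamb1* and between -0.30 and -0.21 for *Sox7*. In WD44 no member passed the test. Since 0 genes passed there, *Kdm6a* included, this does not show that the members were unchanged. At an unadjusted p under 0.05 from limma, 2 of 10 members (*Col4a1* and *Gata4*) were higher in WD44, beside 8.85% of all genes tested.

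Set against each other, the medians of the 2 classes did not separate. The matrix class holds *Sparc* and *Lamb1*, chosen in part by their PGK12.1 values, so the comparison in PGK12.1 is a description. The median change of the 6 matrix genes was 0.01, -0.01, 0.03 and -0.025 in PGK12.1 experiments 1 to 4, and that of the 3 transcription factors was -0.05, -0.06, 0.04 and 0.04. The difference between class medians, matrix minus factor, averaged 0.00875 ± 0.0581 in PGK12.1 (SD, n = 4 experiments) and 0.015 ± 0.106 in WD44 (SD, n = 2 experiments), smaller than its spread in both lines. The spread within a class was wider. Matrix genes reached -0.51 (*Sparc*) and 0.25 (*Lama1*) in PGK12.1 experiment 4, and transcription factors -0.32 (*Sox7*) and 0.20 (*Gata6*) in experiment 2.

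The difference in response between the lines (PGK12.1 minus WD44) contains the contrast that chose the genes, and it is described on the log2 scale without an interval or a test. It was -0.51 for *Sparc*, -0.22 for *Lamb1*, 0.19 for *Lama1*, -0.18 for *Col4a1* and -0.18 for *Col4a2*. For the other 5 members it was between -0.15 (*Gata4*) and 0.03 (*Lamc1*). Over all genes tested, 0 passed the adjusted test in this contrast from limma (0%) and 3221 (21%) had an unadjusted p under 0.05. WD44 had single RNAi only, and the mean change of *Sparc* in the single RNAi experiments of PGK12.1 was -0.46, as large as in all 4.

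Among the members other than *Sparc* and *Lamb1*, none passed the test of double against single RNAi in PGK12.1. The arrays of this contrast also chose *Sparc* and *Lamb1*, and the choice may favour a small difference for them. *Sparc* and *Lamb1* are therefore described here without an interval or a test. The mean change of *Sparc* was -0.46 after double and -0.46 after single RNAi, a difference of -0.005. *Lamb1* averaged -0.31 after double and -0.23 after single RNAi. *Sox7* averaged -0.30 after double and -0.18 after single RNAi (95% interval of the difference -0.42 to 0.17, unadjusted p = 0.364 from limma). *Lama1* had the smallest p among the members tested in this contrast (0.197 unadjusted, 0.733 adjusted, from limma). Over all genes 0 passed (0%), with 1360 (8.87%) at an unadjusted p under 0.05. The treatments differ in rounds, dose and time at once.

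The control arrays of the lines differed for several members before any knockdown. On the log2 scale relative to the array median, *Sparc* was at 5.10 and 5.02 in WD44 and at 3.77 to 4.58 in PGK12.1, a difference of 0.94 (WD44 minus PGK12.1). *Lamb1* was at 2.84 and 2.74 in WD44 and at 1.40 to 2.60 in PGK12.1, a difference of 0.67. *Dab2* probe set 10422728 showed the widest gap, at 1.54 and 1.69 in WD44 and -0.29 to 0.03 in PGK12.1, or 3.24-fold higher in WD44. *Gata6* was also above all PGK12.1 controls, at 0.46 and 0.39 in WD44 and -0.45 to 0.29 in PGK12.1. *Lamc1* and *Gata4* ran the other way, with *Lamc1* at 3.77 and 3.60 in WD44 and 4.01 to 4.21 in PGK12.1, and *Gata4* at 0.30 and 0.44 in WD44 and 0.56 to 0.75 in PGK12.1. The ranges of *Lama1*, *Col4a1*, *Col4a2* and *Sox7* overlapped between the lines. Over all probe sets, 20.2% had both WD44 controls above and 27.5% below all 4 PGK12.1 controls, and array scale cannot be told apart from line for these levels. Against PGK12.1 experiment 4, whose median was nearest to WD44, the differences were 0.48 for *Sparc*, 1.39 for *Lamb1* and 1.91 for *Dab2* probe set 10422728. Summed levels of whole lists also differed between the lines, where each sum is weighted toward the genes with the highest values. The 28 fibroblast genes summed to 36.1 to 37.4 times the array mean on the WD44 controls, against 15.0 to 19.0 on the PGK12.1 controls. The 32 other primitive endoderm genes summed to 39.5 to 41.9 in WD44 and 19.9 to 31.0 in PGK12.1, and the 15 matrix receptors to 28.1 to 29.7 in WD44 and 14.7 to 18.0 in PGK12.1. The 22 other basement membrane genes summed to 21.4 to 22.4 in WD44 and 12.7 to 20.4 in PGK12.1. The 15 collagen processing genes summed to 26.7 in WD44 and 19.0 to 25.8 in PGK12.1. The 10 trophoblast genes summed to 4.80 to 4.92 in WD44 and 2.94 to 3.44 in PGK12.1. The 14 ES cell genes were lower, at 69.0 to 71.3 in WD44 and 84.9 to 110.4 in PGK12.1. In each of these lists the PGK12.1 control nearest to WD44 was that of experiment 4. The part of array scale in these sums was not tested. The part of other cells in the levels of *Sparc*, *Lamb1* and *Dab2* was not tested.

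**Figure D3:**
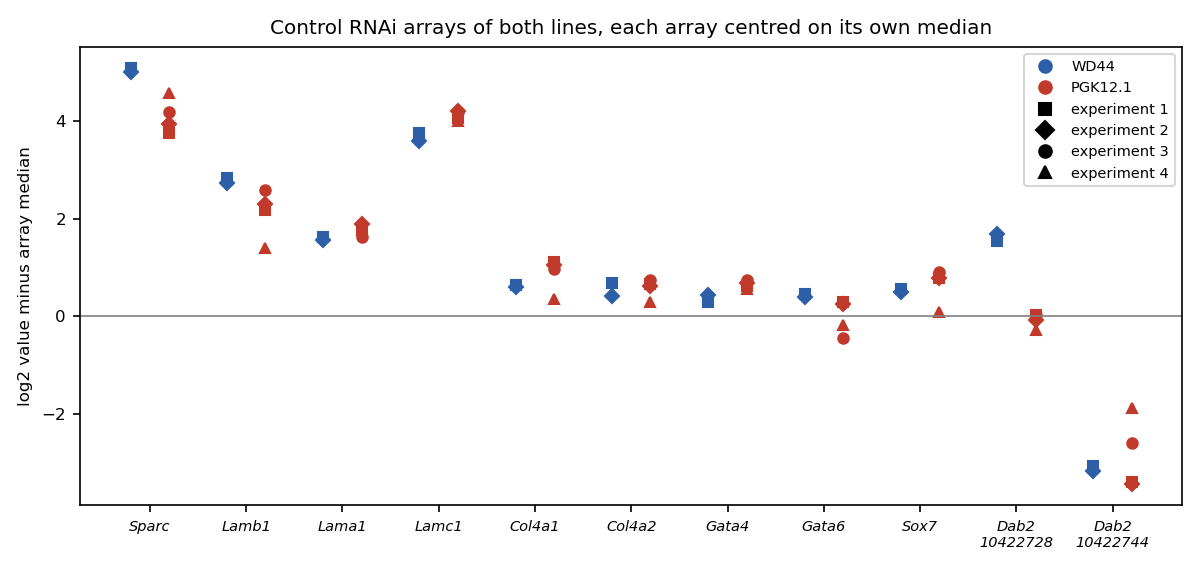
Log2 value of each member on the control arrays minus the median of that array, WD44 in blue left of PGK12.1 in red, 1 point per array. *Sparc*, *Lamb1*, *Gata6* and *Dab2* probe set 10422728 lie above all 4 PGK12.1 controls in WD44, and *Lamc1* and *Gata4* lie below them; values of different genes are not comparable.

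Among 19 other basement membrane genes tested, 1 fell in PGK12.1 and none rose. This was *Agrn*, which encodes the heparan sulfate proteoglycan agrin, with changes of -0.40, -0.46, -0.51 and -0.44 (mean -0.45, adjusted p = 0.00162 from limma). Of 15 genes for collagen processing 1 fell and 1 rose. *Serpinh1*, the collagen chaperone HSP47, had changes of -0.46, -0.29, -0.27 and -0.51 (mean -0.38, adjusted p = 0.00442 from limma), and in WD44 its values were 0.15 and 0.20. *Plod2*, a lysyl hydroxylase, rose by a mean of 0.27 (adjusted p = 0.0289 from limma). Among 15 matrix receptors *Itga3*, a laminin-binding integrin chain, fell by 0.28 on the log2 scale (adjusted p = 0.0186 from limma). Of 29 other primitive endoderm genes 2 fell and none rose, *Serpinh1*, which is in both lists, and *Cth*, an enzyme of cysteine synthesis, with a mean of -0.27 (adjusted p = 0.0289 from limma). These counts stand beside 2.1% lower and 3.71% higher among all genes tested. *Agrn* and *Serpinh1* kept their calls without any 1 experiment. With the double RNAi experiments alone neither passed (adjusted p = 0.0551 and 0.0564 from limma). With the single RNAi experiments alone *Agrn* passed and *Serpinh1* did not (adjusted p = 0.046 and 0.0747 from limma). *Plod2* lost its call without any 1 of the PGK12.1 experiments and *Itga3* without PGK12.1 experiment 2, 3 or 4. *Cth* lost its call in each fit without 1 experiment but that without PGK12.1 experiment 1.

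The medians of the lists in PGK12.1 were -0.04 for other basement membrane, 0.05 for collagen processing, -0.05 for matrix receptors and -0.07 for other primitive endoderm genes, beside 0.0075 over all genes tested. In WD44 they were 0.05, 0.08, 0.07 and 0.09, beside a median over all genes of -0.005, and no gene of any list passed the test there. For the primitive endoderm list, medians by experiment were -0.08, -0.08, -0.08 and -0.02 in PGK12.1 and 0.11 and 0.09 in WD44. Genes of FGF and ERK signalling, which acts upstream of primitive endoderm, had 1 rise in 19, *Spred1*, an inhibitor of this pathway (mean 0.25, adjusted p = 0.046 from limma), a call lost in each fit without 1 experiment but that without PGK12.1 experiment 3. *Utf1*, an ES cell chromatin factor, had a mean change of -0.22 (adjusted p = 0.0248 from limma, 1 of 14 ES cell genes), a call lost in each such fit but that without PGK12.1 experiment 4, and *Ascl2*, a trophoblast factor, of -0.34 (adjusted p = 0.014 from limma, 1 of 8 trophoblast genes), lost without PGK12.1 experiment 1 or 2. These single calls stand beside 3.71% higher and 2.1% lower among all genes tested.

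Fibroblast markers were followed because MEF feeders also make matrix. The summed level of 28 fibroblast genes was 14.5 to 19.8 times the array mean after *Kdm6a* RNAi and 15.0 to 19.0 on the control arrays of PGK12.1. Of the 26 tested, 1 rose in PGK12.1 (*Loxl1*, a lysyl oxidase, mean 0.25, adjusted p = 0.0234 from limma, a call lost in each fit without 1 experiment but that without PGK12.1 experiment 3) and none fell. In PGK12.1 experiments 1 to 4 their median changes were -0.085, 0.01, 0.005 and 0.075. In WD44 the summed level was 40.2 to 43.2 after *Kdm6a* RNAi and 36.1 to 37.4 on the control arrays. The median changes were 0.14 and 0.15 in WD44, and 19 of 26 fibroblast genes had positive values in both experiments, beside 31.3% of all genes tested. The ES cell list had medians of -0.04 and -0.06 in WD44, and 9 of its 14 genes had negative values in both experiments, beside 33.1% of all genes tested. The positive WD44 values of *Col4a1*, *Col4a2* and *Gata4* and of the primitive endoderm list stand beside these shifts of the fibroblast and ES cell lists, whose part in them was not tested. Of 14 defining fibroblast markers, 12 were below the array mean on every array, among them *Col1a1* at 0.277 to 0.585 times the array mean, and 2 of these, *Postn* and *Lum*, were below the minimum level. Since most probe sets lie below the array mean, this count does not show that fibroblasts were absent. *Acta2* was at 0.181 to 3.07 and *Tagln* at 0.222 to 2.38 times the array mean. In these bulk samples fewer cells of a type and less RNA per cell cannot be told apart.

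**Figure D4:**
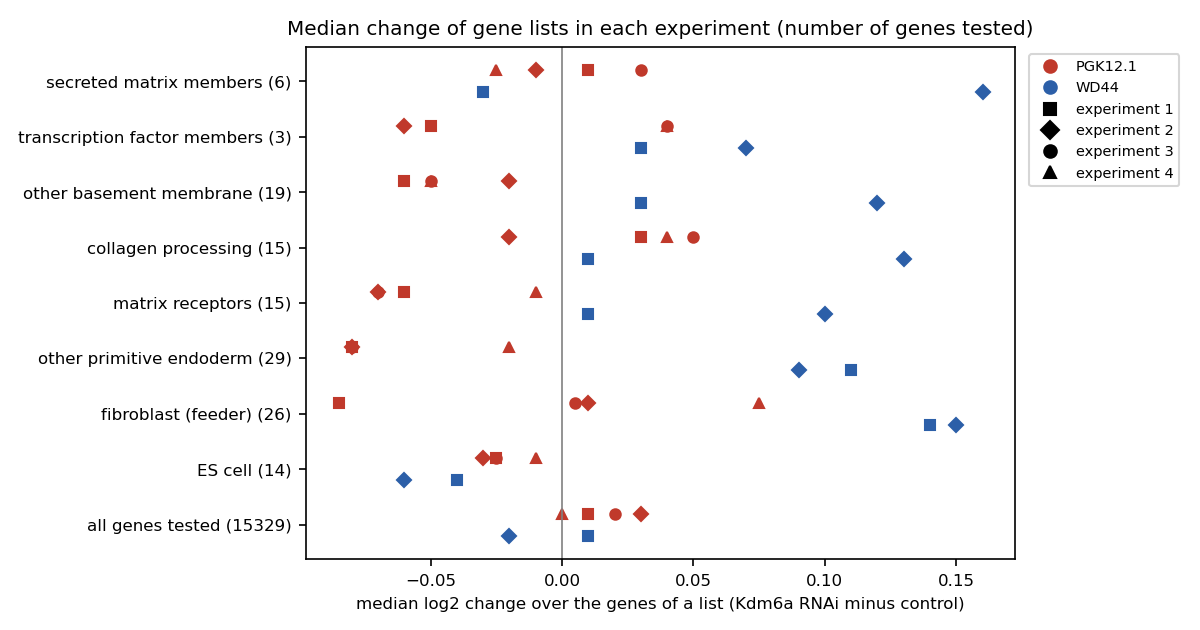
Median log2 change (*Kdm6a* RNAi minus control) over the genes of each list, 1 point per experiment, PGK12.1 in red and WD44 in blue, with the number of genes tested in parentheses. The fibroblast list lies at 0.14 and 0.15 in WD44 and at -0.085 to 0.075 in PGK12.1, and all genes tested lie between -0.02 and 0.03.

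By the distance between their 6 changes and those of *Sparc*, the nearest genes outside the members were *Car14*, *Ddah1*, *Erbb3*, *Anxa2* and *Lrrn4*. The Euclidean distances over the 6 experiments were 0.199 (*Car14*, a carbonic anhydrase), 0.222 (*Ddah1*, which degrades methylarginines), 0.228 (*Erbb3*, a receptor of the EGF receptor family), 0.238 (*Anxa2*, a calcium-dependent membrane-binding protein) and 0.259 (*Lrrn4*, a leucine-rich repeat membrane protein). Of the 6 changes 4 are those in PGK12.1, so the distance is a description, and the PGK12.1 means of these genes, -0.46 to -0.37, are set by the choice. *Anxa2* had WD44 values of 0.05 and 0.19, on the same side as those of *Sparc* in experiment 2.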

How the data were processed

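Total RNA of 12 samples was labelled and measured on Mouse Gene 1.0 ST arrays (Affymetrix). The deposited values are log2 values of 35556 probe sets, which the authors made with Expression Console and RMA (background correction, normalization and probe summary). The sources used here give neither their versions nor which arrays were normalized together. Array medians differ between experiments, so effects were taken within an experiment, and the number of arrays limits the precision. The platform annotation gave 1 gene symbol for 21789 probe sets, several for 1621, which were left unnamed, and none for 12146. Where a gene had more than 1 probe set (999 genes), the log2 values were averaged. Of 19938 genes, 15329 reached a mean linear level of 0.1 times the array mean, and 4609 stayed below and were not tested.

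All tests were made in limma 3.58.1 (R 4.3.3, 4 residual and 5.67 prior degrees of freedom, of which WD44 gives 1 residual) with Benjamini-Hochberg adjustment over all genes tested at 0.05, the experiment as a block, 1 effect per line and 1 spread shared by all arrays. The pairing comes from the experiment numbers in the labels and the paired tests of the methods. As a check, deviations of the 2 arrays of an experiment from their group means had r = 0.608, 0.602, 0.765 and 0.918 in PGK12.1, where the scale of the arrays enters, and 0.04 in WD44, the same for both by construction. Fits were tested on simulated data. The members and lists were chosen with earlier results of these data known. Genes named are the 10 members, *Kdm6a*, up to 4 called genes of each other list, and the 5 genes nearest to *Sparc*. Some genes of the lists are not reported here. Promoters came from RefSeq (GRCm38.p6). Python 3.11.15 and matplotlib 3.10.9 were used for figures.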

Additional observations from a re-analysis of the deposited data

Results flagged for a closer look

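In groups of 4 PGK12.1 arrays or changes, 35 in all, 1 value stood apart from the other 3 in 7 groups. Chance gives about 1 in 20 groups where groups are independent. These groups share arrays, and most values that stood apart were those of experiment 4, so their number cannot be set against that rate. *Sparc* in experiment 4 was at 4.08 times the array mean after *Kdm6a* RNAi and 5.81 on the control array, above 2.01 to 2.18 and 2.76 to 2.95 in experiments 1 to 3. *Lamb1* on the control array of experiment 4 was at 0.641, below 0.917 to 0.948 on the others. *Dab2* probe set 10422744 in experiment 4 was at 0.0656 after *Kdm6a* RNAi and 0.0655 on the control array, above the other 3 arrays of each group and still below the minimum level. Both arrays of experiment 4 had medians of 8.2 and 8.21, apart from the other PGK12.1 arrays. Among the changes, *Sox7* at -0.04 in experiment 4 stood apart from -0.28 to -0.32 in the others, and *Dab2* at -0.10 in experiment 3 from 0.035 to 0.05. *Lama1* was higher in all 4 PGK12.1 experiments and lower in both WD44 experiments, a difference of 0.19 (PGK12.1 minus WD44) that was not tested.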

How the results depend on the processing

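Counts of genes past the adjusted threshold in PGK12.1 (890) depended on the settings, 452 without a minimum level, 1371 with a minimum of 0.25, 1647 with a trended and robust prior, 182 with double and 102 with single RNAi experiments alone, and 350 to 607 when 1 experiment was left out. The methods' paired t-test gave 2445 genes unadjusted and 0 after Benjamini-Hochberg. Without the replicate block 0 genes passed in PGK12.1. In WD44 the count (0) became 1 at a minimum of 0.25, 1 with quantile normalization over the 12 arrays and 12 with the trended and robust prior. It was 0 to 1 when 1 PGK12.1 experiment was left out (1 without experiment 4). Genes whose response to *Kdm6a* RNAi differed between the lines (0) became 270 at a minimum of 0.25 and 3 with arrays centred on their medians. That count was 1 with quantile normalization and 553 with the trended and robust prior. The count for double against single RNAi (0) became 1 with the trended and robust prior. Named list genes lost their PGK12.1 call in 61 cases, and none reversed. No member passed in WD44 under the alternative runs that kept both WD44 experiments. At most 12 genes passed in any of these runs, so they could show little about the members. The WD44 mean of *Dab2* (-0.0025) turned positive at 0.0175 with centred arrays, 0.0185 with quantile normalization and 0.295 for probe set 10422744 alone. Leaving out 1 WD44 experiment gave *Dab2* -0.015 to 0.01, *Sox7* -0.29 to 0.04, *Sparc* -0.04 to 0.14 and *Lamc1* -0.02 to 0.18. The class difference kept within its spread under the alternatives, between -0.029 and 0.033 in PGK12.1 and between -0.06 and 0.09 in WD44. The cause of these changes was not tested.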
